A study of Mus musculus with 4 samples.

Results

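The comparison described here set macrophages exposed to extracellular vesicles with a miR-17 mimic against macrophages exposed to vesicles with a scrambled RNA, across all genes. Its members were 2 of the 4 libraries of the study, 1 on each side, chosen by the label of the vesicle cargo. Both libraries came from bone marrow-derived macrophages of C57BL/6 mice aged 6 to 8 weeks, with no engineered allele named in the labels. Marrow progenitors had been grown for 5 to 7 days in 30% L929-conditioned medium, a source of the growth factor that drives macrophage differentiation. The cells of the miR-17 EV group were exposed for 16 h to vesicles from Beas2B, a human lung epithelial line, that carried miR-17 mimics. The control EV group had vesicles of the same line with scrambled control RNA. The remaining libraries, whose values are given beside these, were miR-93 EV, exposed in the same way to vesicles with miR-93 mimics, and unexposed cells without added vesicles.

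RNA of 4 biological replicates was pooled before each library was made, and each group was 1 library. The spread between cultures was therefore not measured, no test could be run, and a ratio compares the libraries rather than the conditions. The 95% intervals beside ratios are exact conditional (Clopper-Pearson) intervals and cover counting error only, since PCR reads that carry no molecular identifier can be copies of one molecule. Vesicles were human and the RNA was counted on mouse genes. The amount of mimic that reached the cells was not among the values used here. In pooled bulk RNA, fewer cells of a type and less RNA per cell cannot be told apart.

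Extracellular vesicles are membrane particles that cells release and that can carry proteins, mRNA and microRNA to other cells. A microRNA guides the Argonaute silencing complex to messenger RNAs that pair with its seed, the bases near its 5′ end, which lowers the stability or the translation of these messengers. miR-17 and miR-93 belong to one family with a shared seed. The family is known for promoting proliferation and, in human progenitors, for holding back the differentiation of monocytes.

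The mature mouse sequences below show what the mimic has in common with its relatives. They are RefSeq sequences on GRCm38.p6, written 5′ to 3′, and the capitals mark the seed, bases 2 to 8. Their loci are chr14:115043684-115043706 on the plus strand for miR-17-5p, chr14:115044183-115044205 on the plus strand for miR-20a-5p, chr5:138165574-138165596 on the minus strand for miR-93-5p and chr5:138165787-138165807 on the minus strand for miR-106b-5p.
mmu-miR-17-5p: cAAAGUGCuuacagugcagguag
mmu-miR-20a-5p: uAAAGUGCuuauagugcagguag
mmu-miR-93-5p: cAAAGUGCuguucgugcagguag
mmu-miR-106b-5p: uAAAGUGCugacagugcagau
The seed AAAGUGC was the same in all of these. miR-17-5p and miR-93-5p had the same base at 19 of the 23 positions when aligned from the 5′ end. A messenger that pairs with the seed carries GCACTTT, and the 8-base site GCACTTTA adds an A opposite the first base of the microRNA.

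Sites of this kind were read from the 3′ UTR of genes reported in the literature as targets of the family, in GENCODE M21 on GRCm38. The windows below are shown because these genes are among the reported targets with a match whose ratios were farthest from 1. Each is 30 bases on the strand of the messenger, and the capitals mark the site.
Rock2, chr12:16987550-16987556, plus strand: ccaatgttaaaGCACTTTgacaagcactgt
Zfp148, chr16:33497373-33497380, plus strand: aaataatactgGCACTTTAgaacagattac
Wee1, chr7:110142606-110142613, plus strand: tccaactgggaGCACTTTAggcatcgtgtg
Itch, chr2:155225568-155225574, plus strand: aactgatgaatGCACTTTgaccttctctgt
Map3k5, chr10:20141675-20141682, plus strand: agggagaagctGCACTTTAaatccagtctt

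Reads in genes numbered 22607247 for miR-17 EV and 17815250 for control EV, and size factors computed from all 4 libraries were 1.13 for miR-17 EV and 0.854 for control EV. The 3 other libraries stood closer to each other than to control EV in the length of aligned sequence per read, which had a median of 96.3 bases for miR-17 EV, 114 for control EV, 98.7 for miR-93 EV and 103 for unexposed. Pseudogenes took 7.96% of reads in miR-17 EV and 9.05% in control EV. Ratios also moved with GC content. In 5 equal classes of genes, ordered from low to high GC of the gene span, the median log2 ratio of miR-17 EV over control EV was 0.18, 0.01, −0.09, −0.09 and −0.05. The part of these library differences in the results was not tested. All 8 macrophage markers were measured, and their summed normalized count was 649800 in miR-17 EV, 778400 in control EV, 663500 in miR-93 EV and 690600 in unexposed. Most of that difference lay in Lyz2, with 475900 in miR-17 EV and 596200 in control EV. Of the 8 markers 6 were below 0, beside 52.9% over all genes, with a median log2 ratio of −0.12. Csf1r, Fcgr1, Mertk and Itgam had log2 ratios of −0.29, −0.27, −0.18 and −0.06. Cd68, Mpeg1 and Adgre1 were at 0.01, 0.03 and −0.04. The 8 epithelial markers summed to 16.0 in miR-17 EV and 16.4 in control EV, with 3 of them at 0 in each. Markers of T and NK cells summed to 2210 in miR-17 EV and 1656 in control EV, nearly all from Il7r, and markers of osteoclasts to 2139 in miR-17 EV and 1750 in control EV. Endothelial markers summed to 1573 in miR-17 EV and 1459 in control EV, and those of mast cells, erythroid cells and fibroblasts to at most 119.8 in miR-17 EV and 92.5 in control EV.

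The libraries were alike for most genes. Measured genes, meaning those averaging 20 or more normalized counts over both libraries, numbered 15362 of 38087 in the table, and 90.7% of them differed by less than 1.5-fold between miR-17 EV and control EV. The median log2 ratio, taken on normalized counts plus 1, was −0.02, and the quartiles were −0.19 and 0.20. Genes above 0 made up 47.1% and genes below 0 made up 52.9%. A gene was called higher or lower where the ratio was at least 2-fold and its interval excluded 1. By that rule 162 genes (1.05%) were higher in miR-17 EV and 70 genes (0.456%) were lower. At 1.5-fold, 752 genes (4.90%) were higher and 450 (2.93%) were lower.

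**Figure D1:**
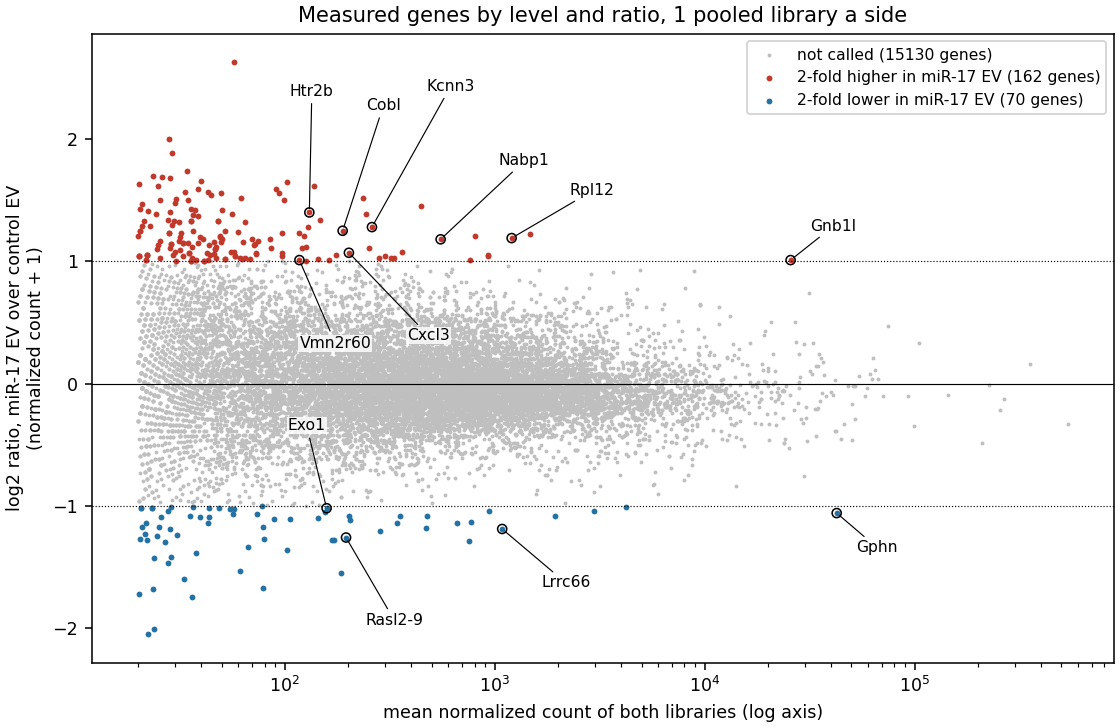
Log2 ratio of normalized counts plus 1, miR-17 EV over control EV, against the mean normalized count of both libraries on a log axis, 1 point per gene. Called genes are coloured, dotted lines mark 2-fold, and circles mark the 12 named genes. Most of the 162 higher and 70 lower genes lie at the left, below a mean of 100.

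The called genes sat mostly at low counts and among gene models with near-identical copies. Between means of 20 and 100 there were 128 of the 162 higher genes and 45 of the 70 lower genes. Pseudogenes gave 57 of the higher and 31 of the lower calls from 1678 measured, or 3.40% and 1.85%. Protein-coding genes gave 71 and 25 calls from 12567 measured, or 0.565% and 0.199%. Of the 34 higher genes with a mean of at least 100, 17 were pseudogenes, 6 were unnamed or copy-like coding models, 3 were noncoding and 8 were named genes. The 25 lower genes of that level held 17 pseudogenes, 4 noncoding models and 4 named genes. The largest ratio on each side was that of an unnamed model overlapping another gene, singled out after its values were seen. Gm9887, inside the Arf6 gene, had 99.4 normalized counts in miR-17 EV and 15.2 in control EV, and 87.8 in miR-93 EV and 91.7 in unexposed, so that control EV alone was low. Gm16121, antisense within Mad1l1, had 7.99 in miR-17 EV and 36.3 in control EV, and 16.3 in miR-93 EV and 25.3 in unexposed.

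Among the named higher genes, Kcnn3 and Cobl were high in miR-17 EV and unexposed. Kcnn3 (chr3:89520164-89667761), a calcium-activated potassium channel subunit, had 368 normalized counts in miR-17 EV and 151 in control EV, a log2 ratio of 1.28 with a ratio interval of 2.0 to 2.99. It had 159 in miR-93 EV and 408 in unexposed, so miR-17 EV stood with the unexposed library and control EV with miR-93 EV. Cobl (chr11:12236608-12464960), a nucleator of actin filaments, was similar, with 265 in miR-17 EV and 111 in control EV, a log2 ratio of 1.25, and 160.2 in miR-93 EV and 271 in unexposed. The authors' deposited table gave a log2 ratio of 1.25 for Kcnn3 but 0 for Cobl.

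Htr2b, Cxcl3 and Nabp1 were high in both mimic libraries. Htr2b (chr1:86099026-86111970), a serotonin receptor, had 189.9 normalized counts in miR-17 EV and 71.4 in control EV, a log2 ratio of 1.40, against 174 in miR-93 EV and 65.3 in unexposed. It overlaps the proteasome gene Psmd1, with a mean of 3306, and the authors' deposited table gave −0.48 for Htr2b, the opposite direction. Cxcl3 (chr5:90786103-90788086), a neutrophil-attracting chemokine, had 273 in miR-17 EV and 130.0 in control EV, a log2 ratio of 1.07 with a ratio interval of 1.69 to 2.64. With 296 in miR-93 EV and 216 in unexposed, the lowest Cxcl3 value was that of control EV. Nabp1 (chr1:51469498-51478399), a single-stranded DNA binding protein of the DNA damage response, had 766 in miR-17 EV and 337 in control EV, a log2 ratio of 1.18. It had 769.5 in miR-93 EV and 559.6 in unexposed, again with control EV lowest.

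Rpl12, Gnb1l and Vmn2r60 completed the named higher genes. Rpl12 (chr2:32961559-32964496), a protein of the large ribosomal subunit, had 1674 normalized counts in miR-17 EV and 731 in control EV, a log2 ratio of 1.19, beside 1530 in miR-93 EV and 1285 in unexposed. It overlaps Lrsam1, with a mean of 519.5. Gnb1l (chr16:18498768-18566679), a WD-repeat protein, had 34310 in miR-17 EV and 16990 in control EV, a log2 ratio of 1.01, with 23340 in miR-93 EV and 28050 in unexposed. Vmn2r60, a vomeronasal receptor gene that overlaps the unnamed model Gm2308, had 157 in miR-17 EV and 77.3 in control EV, a log2 ratio of 1.01. The authors' deposited table put both in the opposite direction, at −0.89 for Gnb1l and −1.29 for Vmn2r60.

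In the 4 named lower genes, control EV held the highest of the 4 values. Exo1 (chr1:175880778-175911396), an exonuclease of mismatch repair and DNA end resection, had 104 normalized counts in miR-17 EV and 212 in control EV, a log2 ratio of −1.02 with a ratio interval of 0.385 to 0.621. It had 114 in miR-93 EV and 155 in unexposed. Lrrc66 (chr5:73606643-73632505), a leucine-rich repeat protein, had 659 in miR-17 EV and 1508 in control EV, a log2 ratio of −1.19, with 790.3 in miR-93 EV and 901 in unexposed. Rasl2-9, a relative of the nuclear transport GTPase Ran, had 114.5 in miR-17 EV and 276 in control EV, a log2 ratio of −1.26, with 129.5 in miR-93 EV and 153 in unexposed. Gphn (chr12:78226655-78684767), which encodes gephyrin, a scaffold and molybdenum cofactor enzyme, had 27590 in miR-17 EV and 57460 in control EV. Its log2 ratio was −1.06 on the counts but −0.18 in the authors' deposited table, and it had 25970 in miR-93 EV and 30690 in unexposed.

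**Figure D2:**
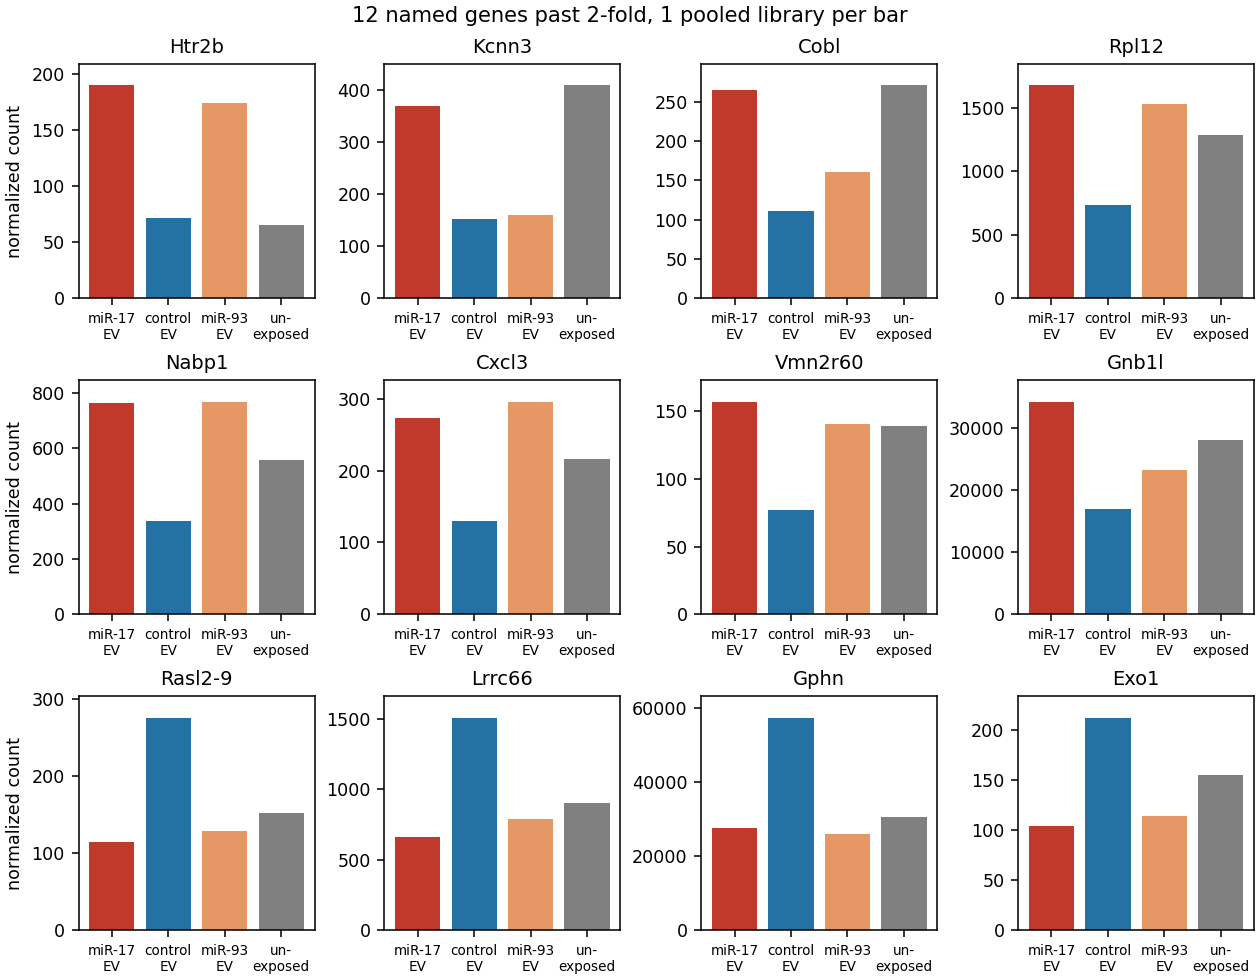
Normalized counts of the 12 named genes past 2-fold, 1 panel per gene and 1 bar per pooled library, with miR-17 EV at the left of control EV. Control EV is the highest bar for Rasl2-9, Lrrc66, Gphn and Exo1, and the lowest for all higher genes but Htr2b, whose unexposed value of 65.3 is lower than its control EV value of 71.4.

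Several called genes of known function lay below a mean of 100, where 44 of the 128 higher and 16 of the 45 lower genes were named. Those that follow were chosen after their values were seen. The C-type lectins Cd209g and Cd209f, relatives of the pathogen receptor DC-SIGN, were higher. Cd209g had 53.2 normalized counts in miR-17 EV and 15.2 in control EV, a log2 ratio of 1.74, with 42.5 in miR-93 EV and 82.2 in unexposed. Cd209f had 96.7 in miR-17 EV and 42.2 in control EV, a log2 ratio of 1.18, with 78.8 in miR-93 EV and 175 in unexposed. The unexposed library was the highest for both lectins. Ninj2, a cell-surface adhesion protein, had 36.4 in miR-17 EV and 10.5 in control EV, with 23.5 in miR-93 EV and 21.1 in unexposed, so miR-17 EV was the highest of the 4. Cdkn2b, which encodes the cyclin-dependent kinase inhibitor p15, had 43.5 in miR-17 EV and 18.7 in control EV, with 35.3 in miR-93 EV and 20.02 in unexposed. Cd101, a surface glycoprotein that restrains activation, was lower, with 24.9 in miR-17 EV and 53.9 in control EV, and 25.4 in miR-93 EV and 27.4 in unexposed. Erbb2, a receptor tyrosine kinase gene next to Mien1, which it overlaps in the table, had 8.87 in miR-17 EV and 31.6 in control EV, with 12.7 in miR-93 EV and 20.02 in unexposed.

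The 10 genes with the most reads in miR-17 EV all differed by less than 1.5-fold. Lyz2, which encodes lysozyme, had 475900 normalized counts in miR-17 EV and 596200 in control EV, a log2 ratio of −0.33, with 491500 in miR-93 EV and 512100 in unexposed. The ferritin chain genes Fth1 and Ftl1 had log2 ratios of 0.16 and 0.33. The lysosomal genes Psap, Ctsb and Ctsd were at −0.13, −0.22 and −0.01, and Gpnmb and Tmsb4x at −0.09 and −0.10. Lars2, the mitochondrial leucyl-tRNA synthetase gene, was at −0.35 and the unnamed model Gm6977 at −0.49.

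Genes with a seed match in the 3′ UTR were not lower as a group in miR-17 EV. Of 12567 measured protein-coding genes, 96.1% had an annotated 3′ UTR, and 14.7% of those held at least 1 copy of GCACTTT in the longest one. The 1780 genes with a match had a median log2 ratio of 0.00 with quartiles of −0.15 and 0.21. The 10303 genes without a match had a median of −0.02 with quartiles of −0.17 and 0.18. Among them, 898 held CACTTTA, a match to bases 2 to 7 followed by an A, and had a median of 0.05. The 9405 with neither site had a median of −0.03. Values below 0 made up 49.7% of genes with a match and 52.9% of genes without. The 552 genes with the 8-base site had a median of 0.02, and the 276 genes with 2 or more matches had 0.06. Calls numbered 12 higher and 1 lower among the 1780 genes with a match. There were 47 higher and 23 lower among the 10303 genes without, a group several times larger. Over all measured protein-coding genes 0.565% were called higher and 0.199% lower.

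**Figure D3:**
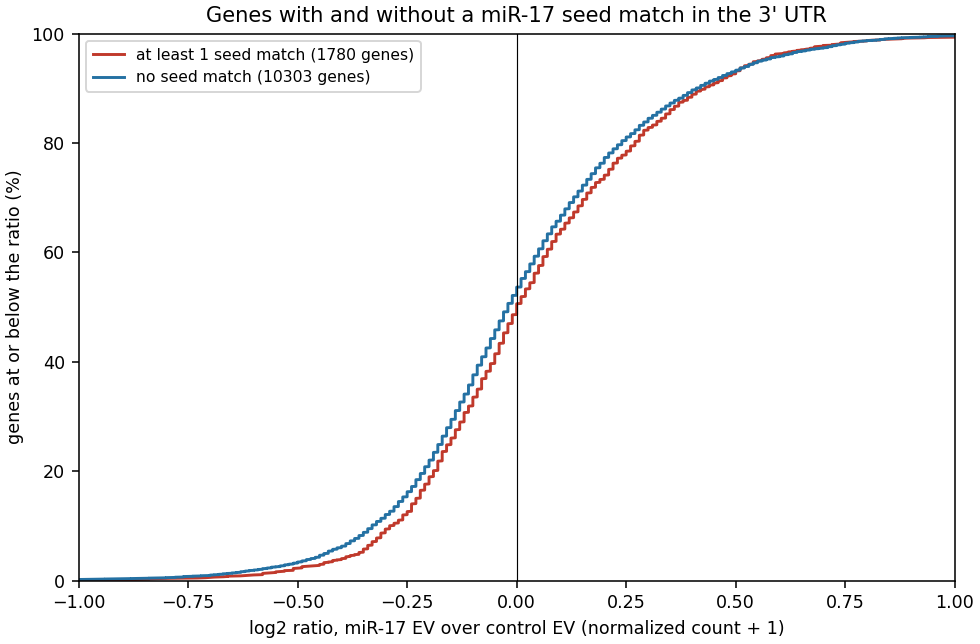
Share of genes, in percent, at or below each log2 ratio of miR-17 EV over control EV, for 1780 genes with at least 1 seed match in the 3′ UTR and 10303 genes without. The curve of genes with a match runs slightly to the right of the other, with medians of 0.00 and −0.02.

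Medians were also near each other in the other libraries and, with and without a match, within GC classes. Against control EV, which all of these comparisons share, genes with a match had a median of −0.01 in miR-93 EV and 0.01 in unexposed. Genes with a match had longer 3′ UTRs, with a median of 2538 bases, against 1020 bases in genes without, and a lower GC content of the gene span, with a median of 44.0%, against 45.8% in genes without. In the lowest of 5 classes by GC content the medians were 0.21 for genes with a match and 0.19 for genes without. They were 0.04 with a match and 0.03 without in the next class, and −0.08 for both in the middle class. In the class above they were −0.10 with a match and −0.09 without, and in the highest −0.07 with and −0.05 without. A match is a description of these letters, not of binding.

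**Figure D4:**
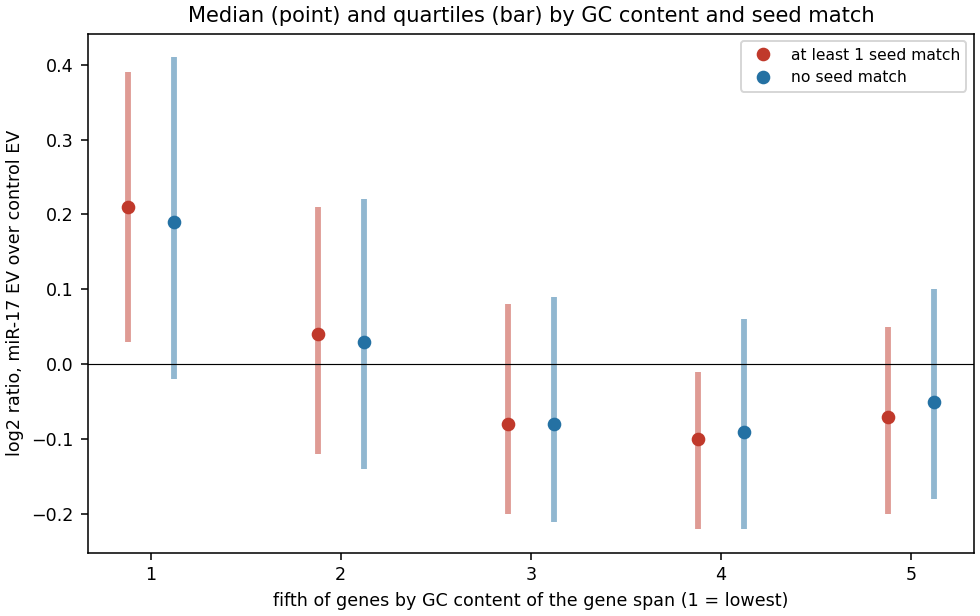
Median (points) and quartiles (bars) of the log2 ratio of miR-17 EV over control EV for protein-coding genes in 5 equal classes by GC content of the gene span, with and without a seed match. Medians run between 0.21 in the lowest class and −0.10 in the class below the highest, and genes with and without a match are within 0.02 of each other in each class.

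Genes reported as targets of the miR-17 family were spread around 0. Of 75 measured, 36 were above 0 and 39 below, beside 47.1% above 0 over all genes, and the median log2 ratio was −0.01. None of the 75 passed 2-fold, beside 1.05% higher and 0.456% lower over all genes, so few calls would be looked for in a list of this size. At 1.5-fold Socs1 alone passed, on the higher side, beside 4.90% higher and 2.93% lower over all genes. The 63 with a seed match had a median of 0.00 and the 12 without had −0.11.

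Other reported targets with a match lay on both sides. Wee1, a kinase that delays entry into mitosis, had 138 normalized counts in miR-17 EV and 184 in control EV, a log2 ratio of −0.42, with 131 in miR-93 EV and 162 in unexposed. Map3k5, a stress-activated kinase, had 202 in miR-17 EV and 263.5 in control EV, a log2 ratio of −0.38, with 197 in miR-93 EV and 247 in unexposed. Both were lowest in the mimic libraries. Rock2, a kinase of the actin cytoskeleton, had 869.7 in miR-17 EV and 643 in control EV, a log2 ratio of 0.44, with 894 in miR-93 EV and 804 in unexposed. The ubiquitin ligase gene Itch was at 0.40, the kinase gene Map3k2 at 0.50 and the zinc finger gene Zfp148 at 0.42. Socs1, an inhibitor of cytokine signalling, had 66.6 in miR-17 EV and 43.3 in control EV, a log2 ratio of 0.61, with 47.1 in miR-93 EV and 37.9 in unexposed. Tnfsf9, the ligand of 4-1BB, had 110.0 in miR-17 EV and 156 in control EV, a log2 ratio of −0.50.

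Further targets tied to the cell cycle, TGF-beta signalling and macrophages, those given here, differed by less than 1.5-fold. Hif1a, E2f2, Tgfbr2 and Sirpa lay outside the quartiles of all genes, −0.19 and 0.20. The cell cycle inhibitor gene Cdkn1a had 8307 normalized counts in miR-17 EV and 7836 in control EV, a log2 ratio of 0.08. The transcription factor gene E2f1 had 969 in miR-17 EV and 958 in control EV. E2f2 was at −0.35 and Ccnd1, which encodes cyclin D1, at −0.04. Tgfbr2, the type II TGF-beta receptor gene, had 3465 in miR-17 EV and 4353 in control EV, a log2 ratio of −0.33, with 3617 in miR-93 EV and 4189 in unexposed. Bcl2l11, which encodes the cell death protein BIM, had 2000 in miR-17 EV and 1949 in control EV. Sirpa, an inhibitory receptor on macrophages, had 40920 in miR-17 EV and 51270 in control EV, a log2 ratio of −0.33, with 40930 in miR-93 EV and 45860 in unexposed. Hif1a, the oxygen-regulated transcription factor gene, had 1403 in miR-17 EV and 1083 in control EV, a log2 ratio of 0.37, and Stat3 was at −0.16.

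The mouse genes that encode the family had intervals that held 1. Mir17hg, the host transcript of the cluster that holds miR-17, had 35.5 normalized counts in miR-17 EV and 39.8 in control EV, with 42.5 in miR-93 EV and 22.1 in unexposed. Its interval for miR-17 EV over control EV was 0.550 to 1.45. Mcm7, the helicase gene whose intron holds miR-93, had 544 in miR-17 EV and 549 in control EV, a log2 ratio of −0.01. The Mir17 locus had 0 reads in miR-17 EV and 1 in control EV, and Mir93 had 6 reads in miR-17 EV and 3 in control EV. The loci cover the hairpin precursors of the mouse genome. Among genes of microRNA processing and silencing, 16 of 31 were above 0 with a median of 0.07. The nuclear export receptor gene Xpo5 was at −0.43 and Ago4, an Argonaute gene, at −0.45, while Ddx5, a helicase of the processing complex, was at 0.41.

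Genes of cell division lay mostly below 0. Of 57 measured mitosis genes, 20 were above 0 and 37 below, with a median log2 ratio of −0.20, beside a median of −0.02 and 47.1% above 0 over all genes. By 1.5-fold 7 were lower and none higher, beside 2.93% lower and 4.90% higher over all genes. The mitotic kinases had the lowest median of the roles, −0.37, with 2 of 10 above 0. Bub1b, a kinase of the spindle checkpoint, had 675 normalized counts in miR-17 EV and 1031 in control EV, a log2 ratio of −0.61, with 662 in miR-93 EV and 768 in unexposed. Nek2, a centrosome kinase, had 316 in miR-17 EV and 505 in control EV, with 296 in miR-93 EV and 320.4 in unexposed. Cyclin B2, encoded by Ccnb2, had 555 in miR-17 EV and 844 in control EV, with 542 in miR-93 EV and 533 in unexposed. Kif2c and Kif22, kinesins that move chromosomes, were at −0.68 and −0.66. Cdkn3, a phosphatase of cyclin-dependent kinases, had 83.4 in miR-17 EV and 167.5 in control EV, with 74.2 in miR-93 EV and 86.4 in unexposed. For each mitosis gene given in counts here, control EV held the highest of the 4 values and the 3 other libraries lay closer together.

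DNA replication genes were placed alike. Of 59 measured, 14 were above 0 and 45 below, with a median of −0.23, beside 52.9% below 0 over all genes. By 1.5-fold 3 were lower and 1 was higher, beside 2.93% lower and 4.90% higher over all genes. In the role of helicase loading and origin firing, 1 of 15 was above 0, Cdt1 at 0.11. Mcm3, a subunit of the replicative helicase, had 1680 normalized counts in miR-17 EV and 2246 in control EV, a log2 ratio of −0.42, with 1710 in miR-93 EV and 1829 in unexposed. Cdc6, which loads that helicase, was at −0.42 and Gins2 at −0.43. Pole2, a DNA polymerase epsilon subunit, had 133 in miR-17 EV and 218 in control EV, a log2 ratio of −0.71, with 148 in miR-93 EV and 163 in unexposed. Rrm1, the large subunit of ribonucleotide reductase, had 2594 in miR-17 EV and 3513 in control EV, a log2 ratio of −0.44. The gene called higher in this list was Nabp1 and the gene called lower was Exo1.

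**Figure D5:**
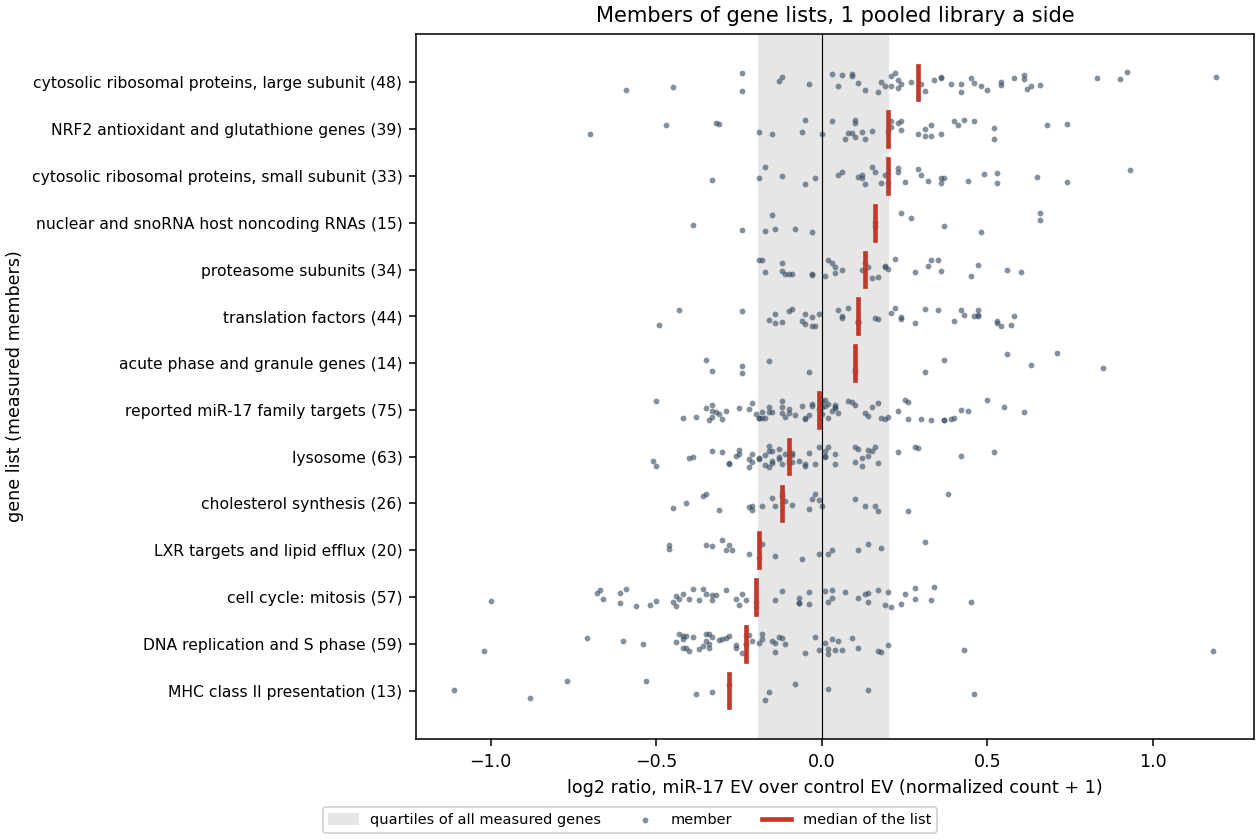
Log2 ratio of miR-17 EV over control EV for each measured member (points) of the 13 lists whose median was at least 0.10 from 0, and of reported miR-17 family targets. Red bars are list medians, between −0.28 for MHC class II genes and 0.29 for the large ribosomal subunit, and grey is the quartile range of all measured genes, −0.19 to 0.20.

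Antigen presentation by MHC class II was the list with the lowest median, −0.28, with 3 of 13 members above 0 and 3 lower by 1.5-fold, beside 47.1% above 0 and 2.93% lower by 1.5-fold over all genes. H2-Aa, the alpha chain of I-A, was called lower, with 55.9 normalized counts in miR-17 EV and 122 in control EV, a log2 ratio of −1.11, and 57.9 in miR-93 EV and 108.5 in unexposed. H2-Eb1 had 45.3 in miR-17 EV and 84.3 in control EV, with 51.6 in miR-93 EV and 68.5 in unexposed. Cd74, the invariant chain that guides class II molecules to the endosome, had 477 in miR-17 EV and 813 in control EV, a log2 ratio of −0.77 with a ratio interval of 0.523 to 0.657. It had 541 in miR-93 EV and 584 in unexposed. The mimic libraries had the lowest values of these genes. The costimulatory receptor gene Cd40 went the other way, with 275 in miR-17 EV and 199 in control EV. In the B cell marker list, whose Cd79b had 389.6 in miR-17 EV and 478 in control EV, the summed count was 478 in miR-17 EV and 554 in control EV. The dendritic cell list summed to 295.5 in miR-17 EV and 342 in control EV, and the part of such cells in the class II values was not tested.

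Ribosomal protein genes were placed higher. In the large subunit 41 of 48 were above 0 with a median of 0.29, beside 47.1% above 0 over all genes. By 1.5-fold 9 were higher and 1 was lower, beside 4.90% higher and 2.93% lower over all genes. In the small subunit 27 of 33 were above 0 with a median of 0.20, and 3 were higher by 1.5-fold. Rplp1, a protein of the ribosomal stalk, had 11660 normalized counts in miR-17 EV and 6172 in control EV, a log2 ratio of 0.92, with 12830 in miR-93 EV and 14540 in unexposed. Rps14 had 2139 in miR-17 EV and 1120 in control EV, a log2 ratio of 0.93, with 1903 in miR-93 EV and 1703 in unexposed. Rpl36 had 484.5 in miR-17 EV and 260.0 in control EV, with 446 in miR-93 EV and 361.5 in unexposed. Control EV held the lowest of the 4 values in each. Rpl29 and Rpl14 were on the other side, at −0.59 and −0.45. Ribosomal protein genes have many near-identical pseudogene copies, so reads can have been split between them, and 147 such copies had a median of 0.05. Among 44 translation factors 28 were above 0 with a median of 0.11, and Eif4a2 was at 0.58 and Eif1a at 0.57. Mitochondrial ribosomal proteins had 37 of 78 above 0.

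Redox, proteasome and chaperone genes were also placed above 0. Of 39 targets of the antioxidant factor NRF2 and glutathione genes, 30 were above 0 with a median of 0.20, beside 47.1% above 0 over all genes. The 2 that were higher by 1.5-fold are a share near the 4.90% of all genes. Slc7a11, the cystine importer that feeds glutathione synthesis, had 5445 normalized counts in miR-17 EV and 3395 in control EV, a log2 ratio of 0.68, with 5490 in miR-93 EV and 4555 in unexposed. Gpx4, which reduces lipid peroxides, had 952 in miR-17 EV and 570.4 in control EV, a log2 ratio of 0.74, with 855.5 in miR-93 EV and 851.5 in unexposed. Sod2, the mitochondrial superoxide dismutase, was at 0.46. Among proteasome subunits 24 of 34 were above 0 with a median of 0.13, 12 of them in the 14 of the core particle, where Psmb3 was at 0.60. Of the chaperones, Hsp90aa1, the stress-inducible HSP90, had 3749 in miR-17 EV and 2002 in control EV, a log2 ratio of 0.90 with a ratio interval of 1.77 to 1.98, and 3792 in miR-93 EV and 2999 in unexposed. Dnajb4 was at 0.76 and Hspd1, the mitochondrial HSP60, at 0.55, while the list of 29 had 19 above 0 and a median of 0.07.

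Interferon-stimulated genes as a whole were near 0, with 38 of 68 above 0 and a median of 0.03. Within them the Ifi200 family of DNA-sensing and chromatin proteins stood higher, with 9 of 10 above 0 and a median of 0.42. Over all genes 47.1% were above 0 and the median was −0.02. The median GC content of the family was 37.8%, in the lowest of 5 GC classes, whose median log2 ratio was 0.18. The part of GC content in these values was not tested. Ifi204 had 1842 normalized counts in miR-17 EV and 1140 in control EV, a log2 ratio of 0.69, with 1935 in miR-93 EV and 1647 in unexposed. Ifi209 had 524.5 in miR-17 EV and 292 in control EV, with 536 in miR-93 EV and 541 in unexposed, and Ifi205 had 227 in miR-17 EV and 125 in control EV. These genes are closely related neighbours, so reads can have been shared among them. Aim2, the inflammasome sensor of the same family, was at 0.02. The double-stranded RNA kinase gene Eif2ak2 had 1502 in miR-17 EV and 942 in control EV, a log2 ratio of 0.67, with 1534 in miR-93 EV and 1500 in unexposed.

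Inflammatory genes moved in both directions. Chemokine genes and their receptors had 11 of 27 above 0, beside 47.1% over all genes. At 2-fold 1 was called, Cxcl3 on the higher side, beside 1.05% higher and 0.456% lower over all genes. By 1.5-fold 2 were higher and 1 was lower, beside 4.90% higher and 2.93% lower over all genes. Ccl7, a monocyte attractant, had 1379 normalized counts in miR-17 EV and 915 in control EV, a log2 ratio of 0.59, while Ccl8 was at −0.73 and Ccl12 at −0.57. Cytokine genes had 23 of 43 above 0 and a median of 0.00, and the prostaglandin synthase gene Ptgs2 had 240 in miR-17 EV and 148 in control EV, with 245 in miR-93 EV and 165.5 in unexposed. Among 12 Toll-like receptors and their partners 9 were above 0, and Tlr2, Tlr9 and Cd14 were below. Tlr2, the receptor of bacterial lipoproteins, had 3448 in miR-17 EV and 5203 in control EV, a log2 ratio of −0.59, with 3637 in miR-93 EV and 3674 in unexposed. Cd14, the co-receptor of lipopolysaccharide, had 8027 in miR-17 EV and 11260 in control EV, a log2 ratio of −0.49, with 7626 in miR-93 EV and 7800 in unexposed. Tlr4 and Tlr8 were at 0.44 and 0.38.

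Acute phase and granule genes had 8 of 14 above 0, with 3 higher by 1.5-fold, beside 47.1% above 0 and 4.90% higher by 1.5-fold over all genes. Lcn2, an iron-trapping protein of the antibacterial response, had 469 normalized counts in miR-17 EV and 259 in control EV, a log2 ratio of 0.85, with 438 in miR-93 EV and 413 in unexposed. Slpi, a protease inhibitor, had 3261 in miR-17 EV and 1999 in control EV, and Saa3, an acute phase apolipoprotein, had 14150 in miR-17 EV and 9120 in control EV. Lcn2 and S100a8 are also in the neutrophil marker list, of which 2 of 11 were measured. That list summed to 1162 in miR-17 EV, 737 in control EV, 1115 in miR-93 EV and 1005 in unexposed. Lcn2 and S100a8 themselves made 1134 of this sum in miR-17 EV and 708.6 in control EV, so it is not a separate measure. Other markers of the list had few reads. Ltf had 12 in miR-17 EV and 3 in control EV, S100a9 had 4 and 2, Ly6g had 1 and 1, and Mpo had 1 and 7. The part of neutrophils in these values was not tested. The matrix metalloproteinase genes Mmp13, Mmp8 and Mmp9 were at 0.73, 0.58 and 0.50, within a list of 41 adhesion and protease genes that had 22 above 0.

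Lysosome, lipid efflux and cholesterol synthesis genes lay mostly below 0, whereas genes of lipid droplets, uptake and beta-oxidation were split, with 19 of 38 above 0 and a median of −0.01. Over all genes 47.1% were above 0. Of 63 lysosome genes 21 were above 0 with a median of −0.10, and 7 of the 35 hydrolases were above 0. Ctsf, which encodes the protease cathepsin F, had 115 normalized counts in miR-17 EV and 165 in control EV, a log2 ratio of −0.51, with 145 in miR-93 EV and 146.5 in unexposed. In the list of liver X receptor targets and lipid efflux, 6 of 20 were above 0 with a median of −0.19. Apoe had 16960 in miR-17 EV and 23370 in control EV, a log2 ratio of −0.46, with 18120 in miR-93 EV and 20930 in unexposed. Cholesterol synthesis genes had 6 of 26 above 0 and a median of −0.12. None passed 1.5-fold, beside 4.90% higher and 2.93% lower over all genes, so few calls would be looked for in this list. Cd36, the scavenger receptor for oxidised lipids, stood apart from these with 39140 in miR-17 EV and 23390 in control EV, a log2 ratio of 0.74, and 41340 in miR-93 EV and 32230 in unexposed. Tfrc, the transferrin receptor gene, was at 0.63 and Hfe, which binds and restrains that receptor, at −0.69.

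Fc receptors and their signalling partners lay mostly below 0, with 3 of 15 above and a median of −0.16, beside 47.1% above 0 over all genes. Fcgr2b, the inhibitory Fc receptor, had 1283 normalized counts in miR-17 EV and 2041 in control EV, a log2 ratio of −0.67, with 1261 in miR-93 EV and 1498 in unexposed. Clec4e, which encodes the mycobacterial glycolipid receptor Mincle, had 3872 in miR-17 EV and 2526 in control EV, a log2 ratio of 0.62. Scavenger, Fc and complement receptors together had 19 of 53 above 0 and a median of −0.09. Crip1, a LIM-domain protein, had 1359 in miR-17 EV and 2351 in control EV, a log2 ratio of −0.79, with 1335 in miR-93 EV and 1114 in unexposed, and the actin list had 30 of 53 above 0. Of 10 antiapoptotic genes 7 were above 0, among them Xiap at 0.62 and Bcl2a1d at 0.60, the second of which has near-identical copies. Of 16 proapoptotic genes 8 were above 0.

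Many further lists had medians within 0.10 of 0. Oxidative phosphorylation subunits encoded in the nucleus had 38 of 75 above 0 and a median of 0.00. Glycolysis and hypoxia genes had 18 of 38 above 0, and genes of the unfolded protein response 18 of 41. Immediate early genes and mRNA decay factors had 14 of 36 above 0, inflammasome genes 7 of 16, and Rab GTPases and vesicle traffic genes 27 of 52. MHC class I and immunoproteasome genes had 9 of 24 above 0, and iron handling genes 10 of 16. Genes of macrophage identity and activation had 18 of 36 above 0, with Zeb2, a factor of macrophage identity, at 0.45 and Cd38, an ectoenzyme of activated macrophages, at 0.61.

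The authors' deposited list of genes past 2-fold between these groups held 1590 higher genes (4.17% of the table) and 1286 lower genes (3.38%). It held 98 of the 162 genes called higher here, or 60.5% of these and 6.16% of the deposited list. It held 45 of the 70 called lower, or 64.3% and 3.50%. Most of the deposited list lay at low counts, since 502 of its 1590 higher genes and 367 of its 1286 lower genes reached the minimum mean of 20. Across genes, which are not independent replicates, the log2 ratios of the counts and those from the authors' deposited table had a Pearson correlation of 0.58.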

How the data were processed

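RNA was measured in 4 libraries of pooled mouse macrophage RNA, grouped by their transfection label. The deposited table gave the count of reads per gene, whole numbers not normalized, per the file headers. It also gave the average coverage of each gene and its GC content in percent, both as the authors deposited them. A further deposited table gave the authors' log2 values, and deposited lists gave genes past 2-fold. The submitters' processing notes name mm10 and DESeq, with the aligner, annotation and strand handling not given in the sources used here. Lengths in the table ran from gene start to gene end in all 38087 genes, so intron reads were taken to count and overlapping genes may share reads.

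Counts were divided by median-of-ratios size factors from all 4 libraries with Python 3.11.15, numpy 2.4.6, pandas 2.3.3 and scipy 1.17.1. A log2 ratio used a pseudocount of 1, which understates low genes. Genes averaging under 20 normalized counts were left out, and 3 reads came to 2.66 normalized counts in miR-17 EV and 3.51 in control EV. No test was run with 1 library a side. Alternatives were other scalings (total counts, TMM of edgeR 4.0.16 under R 4.3.3), filters, folds, a pseudocount of 5, a running GC median over 501 genes, aligned bases (coverage times span) and the authors' values. The rule was checked on simulated counts.

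The comparison, the 39 pathway and 11 marker lists and all choices were made with earlier results of these data known. Named were up to 15 genes a direction past 2-fold with a mean of at least 100, leaving out unnamed models, pseudogenes and small RNAs, and up to 6 members per list by size of ratio, up to 3 per role and 8 for reported targets. The 10 genes with the highest counts and the microRNA loci were also named, and some other members, chosen after their values were seen, are given for their role. Lists needed 5 measured members, which 37 pathway lists had. Seed matches were sought in the longest 3′ UTR of GENCODE M21, whose IDs matched 95.3% of genes. Some list members are not reported here.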

Additional observations from a re-analysis of the deposited data

How the results depend on the processing

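The counts of 162 higher and 70 lower genes were within 1.5-fold of themselves under total-count scaling, TMM factors, size factors of the 2 libraries alone, a pseudocount of 5 and GC correction. Without a minimum mean count they were 391 higher and 191 lower, with a minimum of 100 they were 34 and 25, at 1.5-fold 752 and 450, and at 3-fold 14 and 7. Without pseudogenes and overlapped genes, fewer genes were tested and 60 were higher and 21 lower. Aligned bases gave 313 and 109, and the authors' values gave 502 and 367, both without an interval rule. The rest of the cause was not tested. The difference in medians between genes with and without a seed match was 0.02. It was 0.00 with GC correction and with the authors' values, and 0.02 with a minimum of 100. Genes with the 8-base site were 0.04 above genes without a match. The genes with CACTTTA but no GCACTTT, which belong to the genes without a match, were 0.07 above that whole group. Of 13 lists with a median of at least 0.10 either way, 12 kept their sign in all 10 settings. Nuclear and snoRNA host noncoding RNAs, with a median of 0.16, were at −0.03 with a minimum of 100, which left 11 genes. Of 77 named genes past 1.5-fold, 73 kept their sign in all 7 settings, and the authors' values reversed Htr2b (−0.48), Vmn2r60 (−1.29) and Gnb1l (−0.89). Leaving out a replicate was not possible with 1 pooled library per group. No paired analysis was possible because each group was 1 library with no replicate number. Depth limits low genes. Bik, with 34.6 normalized counts in miR-17 EV and 18.7 in control EV, had a counting interval of 1.01 to 3.54.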

Other observations

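Of 4 Y-linked genes, 3 had counting intervals above 1 for miR-17 EV over control EV, a share that was not counted over all genes. None passed 2-fold, beside 1.05% higher and 0.456% lower over all genes. The GC content of the 4 spans was 34.9% to 37.6%, in the lowest of 5 GC classes, whose median log2 ratio was 0.18, and its part in these values was not tested. Ddx3y, an RNA helicase, had 475 normalized counts in miR-17 EV and 269 in control EV, a log2 ratio of 0.82, with 483 in miR-93 EV and 425 in unexposed. Eif2s3y, a translation initiation factor subunit, had 575 in miR-17 EV and 378 in control EV, and Uty, a histone demethylase relative, had 262 in miR-17 EV and 177 in control EV. Kdm5d, a histone demethylase, had 349 in miR-17 EV and 316 in control EV, a log2 ratio of 0.14 with a ratio interval of 0.942 to 1.29. Xist, the X-inactivation transcript, had 0 reads in miR-17 EV and 0 in control EV, 1 in miR-93 EV and 3 in unexposed.

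Of 28 potassium and other ion channel genes in the list, 25 were measured, with 10 above 0 and a median of −0.07. Besides Kcnn3, Kcnma1, the large-conductance calcium-activated potassium channel, had 64.8 in miR-17 EV and 35.1 in control EV, with 49.8 in miR-93 EV and 39.0 in unexposed. Of 16 measured replication-dependent histone genes 9 were above 0, and linker histone Hist1h1c had 1476 in miR-17 EV and 1677 in control EV.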
